A study of Mus musculus with 24 samples.

Results

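The miR-181 family is a group of mouse microRNAs (miRNAs), short RNAs that guide Argonaute proteins to messenger RNAs and repress them. Its 7 members here were chosen by name from the deposited count table, as the rows mmu-miR-181a-5p, mmu-miR-181a-1-3p, mmu-miR-181a-2-3p, mmu-miR-181b-5p, mmu-miR-181c-5p, mmu-miR-181c-3p and mmu-miR-181d-5p (the prefix for the mouse is left out below). They are 7 of 1907 miRNA names, and all 7 were among the 558 that passed the filter on low counts. They were counted in small RNA libraries of mouse subcutaneous adipose tissue. Mice had been fed a high-fat diet or a control diet, and the feeding time was 1 day, 1 week or 3 weeks. The 6 groups were high-fat day 1, control day 1, high-fat week 1, control week 1, high-fat week 3 and control week 3, with 4 libraries each and 24 in all. The sources used here do not give strain, sex, age or the make-up of the diets, and no group carried a mutation or a drug according to the labels. The labels do not state whether each library is a different mouse; p-values here reflect the variation among libraries, part of which may be technical. In whole tissue, fewer cells of a type and less RNA per cell cannot be told apart.

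Each miR-181 hairpin is cut by DROSHA and then by DICER into a 5p and a 3p arm. For this family the 5p arm is usually the guide that is loaded into Argonaute, and the 3p arm is usually the passenger that is degraded. The bases called the seed, near the 5′ end, do most of the pairing with targets. In the mouse miR-181a is best known from lymphocytes, where it tunes the sensitivity of the T cell receptor in the thymus and promotes B cell development. In mouse endothelium miR-181b is known to restrain NF-κB signalling and miR-181c is known from heart muscle, where it has been found in mitochondria.

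The mature sequences are shown because the family falls into shared and copy-specific arms, and the results below differ between them. Capitals mark the seed (bases 2 to 8), and the sequences and positions are those of RefSeq on GRCm38.p6 (called mm10).
miR-181a-5p: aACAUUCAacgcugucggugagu
miR-181b-5p: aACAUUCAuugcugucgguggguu
miR-181c-5p: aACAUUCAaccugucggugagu
miR-181d-5p: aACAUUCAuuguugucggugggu
miR-181a-1-3p: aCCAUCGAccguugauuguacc
miR-181c-3p: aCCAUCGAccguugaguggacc
miR-181a-2-3p: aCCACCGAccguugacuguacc

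The 4 5p arms share the seed ACAUUCA, and no other name with a RefSeq sequence carried it. The 3p arms of miR-181a-1 and miR-181c share the seed CCAUCGA, whereas miR-181a-2-3p has CCACCGA. Counted from base 1 at the 5′ end, miR-181a-1-3p and miR-181a-2-3p differ by the changes U5C and U16C, so that one of them lies in the seed. Over their shared length miR-181b-5p and miR-181d-5p differ by the single change C12U. The sources used here do not say how reads that match several of these sequences were assigned, so counts of near-identical members are uncertain.

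Of the 6 hairpin genes, 2 pairs encode the same mature 5p arms. Mir181a-1 lies on chromosome 1 at chr1:137966455-137966541 on the plus strand, 97 bases before Mir181b-1 at chr1:137966639-137966718. Both overlap an exon of the long non-coding RNA A430106G13Rik and an intron of Gm4258 on the same strand (GENCODE M21). Mir181a-2 lies on chromosome 2 at chr2:38852735-38852810 on the plus strand, 1019 bases before Mir181b-2 at chr2:38853830-38853918, and both lie in an intron of Nr6a1, which runs on the opposite strand. On chromosome 8 Mir181d, at chr8:84178716-84178787 on the minus strand, and Mir181c, at chr8:84178873-84178961, are 85 bases apart in an intron of Nanos3 on the same strand. Reads of miR-181a-5p and miR-181b-5p can therefore come from chromosome 1 or 2, whereas the 3p arms of Mir181a-1 and Mir181a-2 tell the copies apart. The hairpins of both miR-181a copies are given with their mature arms in capitals.
Mir181a-1: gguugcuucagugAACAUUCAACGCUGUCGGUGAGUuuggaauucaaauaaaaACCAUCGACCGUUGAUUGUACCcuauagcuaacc
Mir181a-2: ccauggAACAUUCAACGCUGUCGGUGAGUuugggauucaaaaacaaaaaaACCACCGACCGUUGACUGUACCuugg

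The libraries held 1992607 to 16299177 counts, and the members had 51 to 9366 counts in single libraries. A floor of 3 counts corresponds to 0.184 CPM (counts scaled to library size) in the deepest library and to 1.51 CPM in the shallowest, below every member level. The label of the tissue was set beside 3 adipocyte miRNAs. MiR-148a-3p, which is known to promote adipocyte formation, averaged 170645 CPM and was at 106889 CPM or more in every library. MiR-378a-3p averaged 16128 CPM and miR-335-5p 101 CPM. MiR-143-3p, from the list of smooth muscle and pericyte markers, averaged 134262 CPM. These levels do not by themselves establish the tissue. Epithelial miRNAs were present as well, with miR-200a-3p at 3407 to 10474 CPM. Skeletal muscle miRNAs varied widely between libraries of 1 group and are set beside the results they move with. Levels below are CPM with library sizes scaled by the trimmed mean of M-values (TMM).

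The family took a small and stable share of the miRNA counts, from 0.0894 to 0.158% per library with a mean of 0.118 ± 0.0173% (SD, n = 24). It averaged 0.105 ± 0.0134% in high-fat and 0.110 ± 0.00944% in control libraries at day 1, 0.132 ± 0.0259% and 0.119 ± 0.0159% at week 1, and 0.113 ± 0.0109% and 0.129 ± 0.0144% at week 3 (SD, n = 4), so that the shares of the diets overlapped within their SD. The 5p arms made up 87.1% of the family's counts. MiR-181d-5p led with 40.5% of them, miR-181b-5p followed with 30.4% and miR-181c-5p with 11.4%. The remaining members were of similar size, with 5.62% for miR-181a-1-3p, 4.74% for miR-181a-5p, 4.22% for miR-181a-2-3p and 3.05% for miR-181c-3p.

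Over the 24 libraries miR-181d-5p averaged 473 ± 111 CPM (SD), which placed it at rank 108 of the 558 tested miRNAs. MiR-181b-5p averaged 362 ± 42.3 CPM and miR-181c-5p 135 ± 32.5 CPM. These 3 arms held their order in most libraries, since miR-181d-5p was above miR-181b-5p in 22 of 24 and miR-181b-5p above miR-181c-5p in 24 of 24. MiR-181a-1-3p, which comes from the chromosome 1 copy, averaged 66.5 ± 13.9 CPM and was below miR-181c-5p in 23 of 24 libraries. The lower end had no fixed order. MiR-181a-5p averaged 57.2 ± 13.1 CPM, miR-181a-2-3p 50.1 ± 35.8 CPM and miR-181c-3p 35.0 ± 10.5 CPM, and the log2 ratio between neighbours was smaller than its SD over libraries (0.21 ± 0.43 for miR-181a-1-3p over miR-181a-5p, 0.46 ± 0.95 for miR-181a-5p over miR-181a-2-3p, 0.28 ± 0.96 for miR-181a-2-3p over miR-181c-3p).

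The guide arm of miR-181a was counted below the sum of its passenger arms. MiR-181a-5p had fewer counts than miR-181a-1-3p and miR-181a-2-3p together in 23 of 24 libraries, although it can come from both copies. It was above miR-181a-2-3p alone in 15 of 24 libraries. Because its sequence lies at 2 places in the genome and each of these 3p arms at 1, the unstated handling of reads with several matches can affect this ratio, and its part was not tested. In Mir181c the arms stood the other way, with miR-181c-5p above miR-181c-3p in 24 of 24 libraries. The 3p arms of Mir181b-1, Mir181b-2 and Mir181d, which are no members, had 300, 100 and 25 counts in all libraries together.

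The members also differed in how steady they were. The SD of log2 CPM within groups was lowest for miR-181b-5p, at 0.16, and highest for miR-181a-2-3p, at 0.75. The median over the 359 tested miRNAs with a mean of 10 CPM or more was 0.36. MiR-181b-5p lay between 288 and 469 CPM in all libraries, whereas miR-181a-2-3p ran from 14.8 to 152 CPM.

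**Figure D1:**
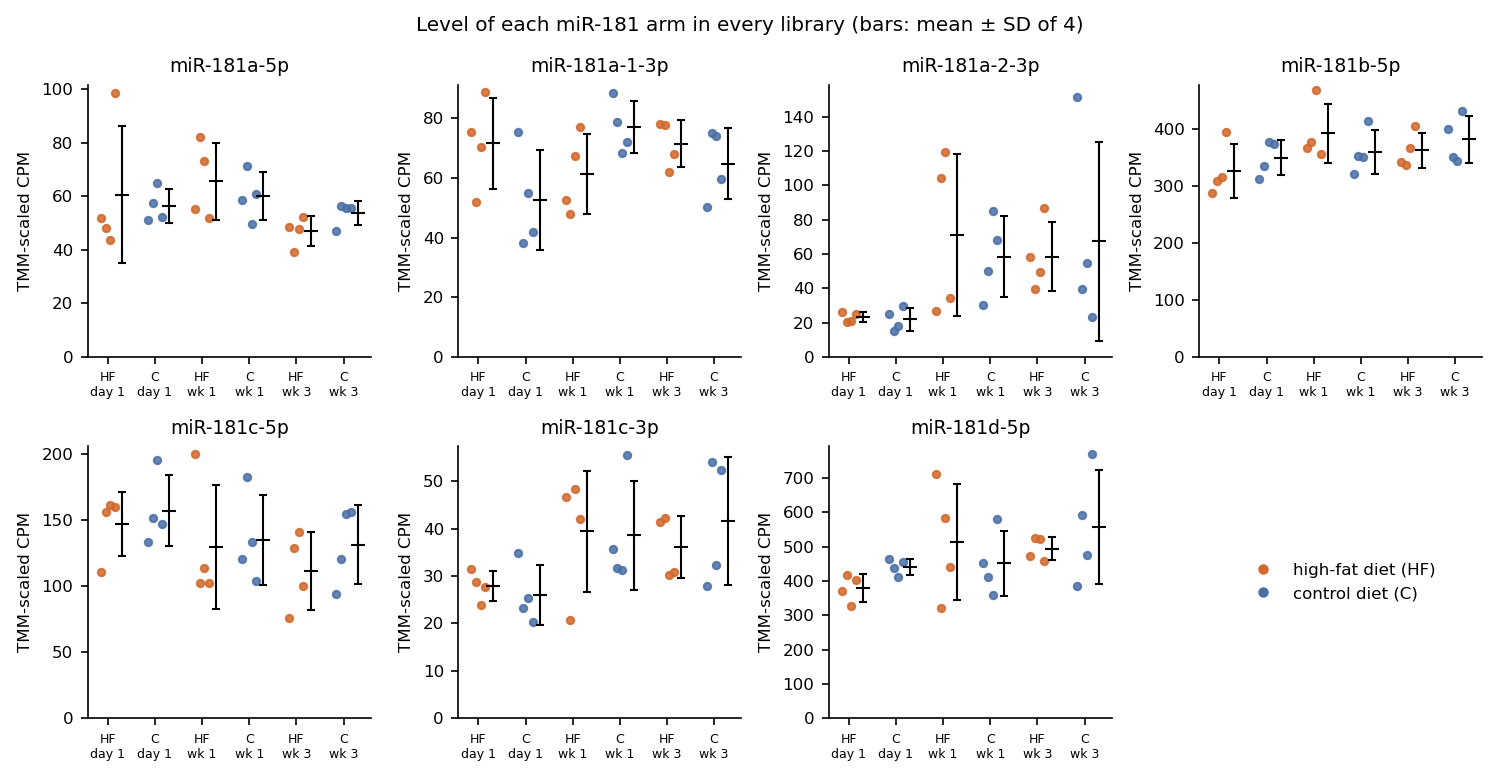
TMM-scaled CPM of each miR-181 arm in every library, with high-fat (HF, orange) beside control (C, blue) at each time and the mean ± SD of 4 libraries in black. Diet groups overlap for every arm and time, and miR-181a-2-3p is at 14.8 to 29.8 CPM in the 8 day 1 libraries and spreads up to 152 CPM later.

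The first comparison asked whether high-fat feeding altered the family. It did not pass the test for any member at any time. With edgeR's quasi-likelihood test and Benjamini-Hochberg adjustment over 558 miRNAs, 0 of 7 members differed between the diets at day 1, week 1 or week 3, where 0% of all tested miRNAs did at each time. The same was found for the mean of the 3 times (0 of 7 members, 0% of all tested) and for a joint test of the change of the diet effect with time (0 of 7, 0%). At an unadjusted p under 0.05 there were 0 members in each of the 5 tests, against 17, 79, 10, 18 and 41 of the 558 miRNAs at day 1, at week 1, at week 3, in their mean and in the joint test. DESeq2 also called 0 miRNAs in each. At day 1 the members' median log2 fold change was 0.09, beside −0.01 over all tested miRNAs. It was 0.13 beside −0.02 at week 1, and −0.19 beside −0.05 at week 3.

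Among the 5p arms, the estimates of diet were small. MiR-181b-5p averaged 327 ± 47.2 CPM in high-fat and 350 ± 31.3 CPM in control libraries at day 1, 393 ± 51.6 and 360 ± 39.1 CPM at week 1, and 363 ± 31.3 and 382 ± 41.5 CPM at week 3 (SD, n = 4). Its log2 fold change for the mean of the 3 times was −0.02 ± 0.08 (SE), the narrowest estimate in the family. MiR-181a-5p gave 0.01 ± 0.13, miR-181d-5p −0.07 ± 0.12 and miR-181c-5p −0.13 ± 0.14 for the same mean. At day 1, week 1 and week 3 miR-181a-5p gave 0.10, 0.13 and −0.19, and miR-181d-5p gave −0.22, 0.19 and −0.17. The signs of these 2 arms differed between times, which brings their means nearer to 0. MiR-181c-5p gave −0.09, −0.06 and −0.24 at the same times. Within ± 2 SE the estimates of the 6 members other than miR-181a-2-3p, at single times and in the mean, reached from −0.77 to 0.88, so changes beyond that range were not within the error of any of them.

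MiR-181a-1-3p had the largest diet estimates of the family at day 1 and week 1, with opposite signs, whereas at week 3 those of 5 other members were larger in size. At day 1 it was at 75.5, 52.0, 70.4 and 88.7 CPM in high-fat libraries, against 75.5, 38.2, 54.9 and 42.0 CPM in control libraries. At week 1 it was at 52.8, 48.0, 67.5 and 77.1 CPM in high-fat libraries, against 88.6, 78.9, 68.5 and 72.3 CPM in control libraries. At week 3 it was at 78.2, 77.8, 62.2 and 67.9 CPM in high-fat libraries, against 50.2, 75.0, 74.1 and 59.8 CPM in control libraries. The groups overlapped at all times, and no member had diet groups that did not overlap (1.79%, 2.87% and 1.08% of all tested miRNAs had such groups, in either direction, at day 1, week 1 and week 3). The log2 fold changes were 0.44 ± 0.22, −0.33 ± 0.22 and 0.14 ± 0.22 (SE; edgeR adjusted p 0.982, 0.460 and 0.999), and the joint test gave an adjusted p of 0.567.

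The estimates of the lymphocyte markers had the sign of those of miR-181a-1-3p at day 1 and week 1, and were mixed at week 3. Their 5 members (miR-150 and miR-342 arms and miR-155-5p) were all measured, with 5 of 5 estimates of diet above 0 at day 1 (median log2 fold change 0.38) and 5 of 5 below 0 at week 1 (median −1.49). At week 3 there were 3 above 0 (median 0.01). EdgeR called 0 of 5 at each time, and at an unadjusted p under 0.05 there were 0, 5 and 0 at day 1, week 1 and week 3. Their summed level was 4399 to 8510 CPM in high-fat and 2833 to 7618 CPM in control libraries at day 1, 957 to 4329 and 2423 to 10462 CPM at week 1, and 3950 to 6642 and 1323 to 9253 CPM at week 3. No lymphocyte marker was at 0 in any library. Their part in the values of miR-181a-1-3p was not tested. Of 11 lymphoid and inflammation miRNAs, such as miR-21a-5p and members of the miR-17-92 cluster (miR-155-5p is in both lists), 7, 1 and 4 had estimates of diet above 0 at day 1, week 1 and week 3. EdgeR called 0 of them, with 0, 3 and 0 at an unadjusted p under 0.05.

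**Figure D2:**
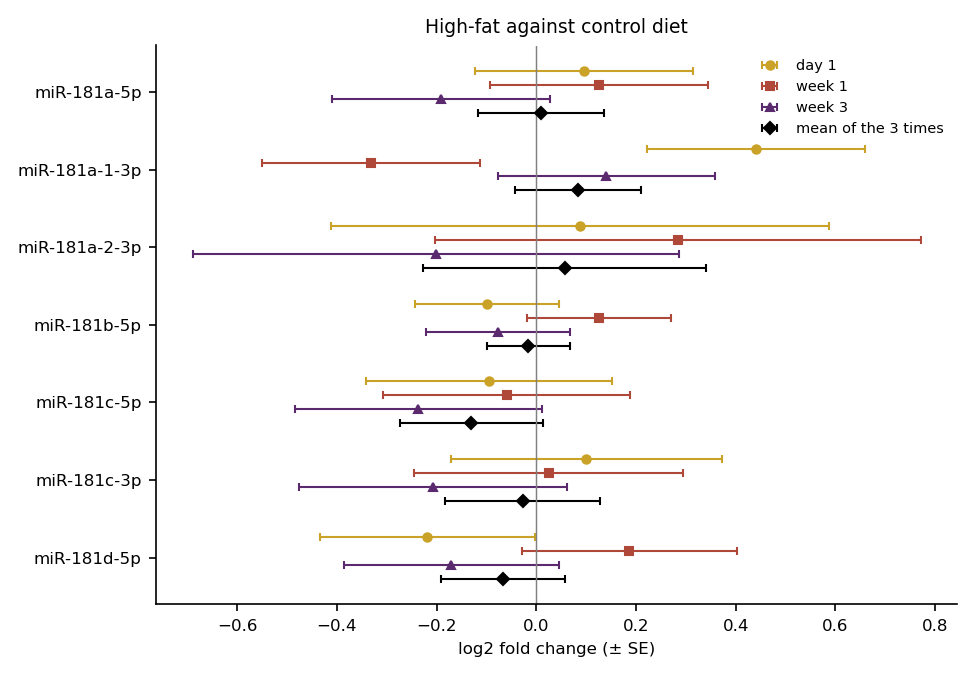
Log2 fold change of high-fat against control (± SE) for each miR-181 arm at day 1, week 1, week 3 and in the mean of the 3 times. Estimates lie between −0.33 and 0.44, and those of miR-181a-2-3p have the widest errors.

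The second comparison set the libraries of the later times against those of day 1. Libraries of different times may also differ in the age of the mice or in batch, which the labels do not give. Feeding time cannot be told apart from these. Only 1 member, miR-181a-2-3p, the copy-specific arm of Mir181a-2, passed a test. At day 1 it was at 26.3, 20.3, 21.03 and 25.1 CPM in high-fat libraries and at 24.7, 14.8, 17.9 and 29.8 CPM in control libraries. At week 1 it was at 26.9, 104, 119 and 34.3 CPM in high-fat and at 30.4, 50.1, 85.2 and 68.2 CPM in control libraries. At week 3 it was at 58.0, 39.5, 49.7 and 86.8 CPM in high-fat and at 152, 39.3, 54.8 and 23.3 CPM in control libraries. The day 1 libraries were low and close together. Of the 8 libraries at each later time, 7 lay above the highest day 1 library.

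Within each diet the test across all miRNAs called 0 of 7 members at week 1 and at week 3 against day 1. On the high-fat diet 0% of all tested miRNAs were called at both times, and on the control diet 0.179% at week 1 and 0.358% at week 3. At an unadjusted p under 0.05 there were 1 member on the high-fat and 3 on the control diet at week 1, and 1 and 2 at week 3, beside 115, 76, 88 and 83 of the 558 miRNAs in the same order. DESeq2 called 1 member, miR-181a-2-3p on the high-fat diet at week 1 (log2 fold change 1.59, adjusted p 0.0474), where it called 23 of the 558 miRNAs, and 0 members in the other contrasts within a diet. The log2 fold changes of miR-181a-2-3p were 1.62 ± 0.51 (high-fat) and 1.43 ± 0.50 (control) at week 1, and 1.33 ± 0.50 (high-fat) and 1.62 ± 0.50 (control) at week 3 (SE; edgeR adjusted p 0.128, 0.239, 0.235 and 0.152). Its libraries did not overlap with those of day 1 at week 1 on either diet and at week 3 on the high-fat diet, where 9.14%, 7.17% and 11.6% of all tested miRNAs did not overlap in either direction (high-fat and control at week 1, high-fat at week 3). On the control diet at week 3 no member was without overlap, beside 7.53% of all tested miRNAs.

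Each later time was also set against day 1 in the mean of the diets, a contrast chosen after seeing the data. In it miR-181a-2-3p was higher by a log2 fold change of 1.52 ± 0.36 at week 1 (2.88-fold, 1.76 to 4.71 within 2 SE, edgeR adjusted p 0.0406). At week 3 it was higher by 1.48 ± 0.36 (2.78-fold, 1.70 to 4.56 within 2 SE, edgeR adjusted p 0.0174). It was 1 of 7 members called at each time, where 0.896% of all tested miRNAs were called in either direction at week 1 and 7.17% at week 3, of which 0.538% and 3.41% were higher. Both contrasts use the same day 1 libraries. No member had all 8 later libraries outside the range of the 8 day 1 libraries, as 0.179% of all tested miRNAs did at week 1 and 1.97% at week 3. Without the filter on low counts the call was lost at both times, with log2 fold changes of 1.502 and 1.44 (adjusted p 0.129 and 0.0693), and with size factors by relative log expression (RLE) it was lost at week 1 (adjusted p 0.0577). At week 1 it was also lost when any 1 of 13 of the 24 libraries was left out, namely any control day 1 library, control week 1 replicates 3 and 4, control week 3 replicate 4, high-fat day 1 replicates 1, 3 and 4, high-fat week 1 replicate 3 and high-fat week 3 replicates 3 and 4, with log2 fold changes of 1.34 to 1.66 over all single omissions. At week 3 no single omission ended the call, and the estimate was lowest, at 1.09, without control week 3 replicate 1.

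Skeletal muscle miRNAs had estimates above 0 in the same contrasts. Of the 7 muscle markers 6 were tested (miR-1a-3p, both miR-133a arms, miR-133b-3p, miR-206-3p and miR-499-5p), and miR-208b-3p was at 0 in 12 of 24 libraries. All 6 had estimates above 0 against day 1, with a median log2 fold change of 2.91 at week 1 and 2.33 at week 3 over both diets. EdgeR called 0 of 6, with 6 and 2 at an unadjusted p under 0.05 at week 1 and week 3. Their summed level was 24.2 to 3092 CPM in high-fat and 133 to 2421 CPM in control libraries at day 1, 135 to 80986 and 555 to 18760 CPM at week 1, and 1267 to 17378 and 2201 to 13395 CPM at week 3. Without the 3 libraries highest in these markers (replicate 2 of high-fat week 1, replicate 4 of control week 1 and replicate 4 of high-fat week 3; chosen after seeing the data) the log2 fold change of miR-181a-2-3p was 1.36 ± 0.39 at week 1 (edgeR adjusted p 0.0786) and 1.35 ± 0.38 at week 3 (adjusted p 0.0346). This omission did not even out the muscle markers between the times. In the control week 3 group, the library at 152 CPM of miR-181a-2-3p was kept, with muscle markers summing to 13395 CPM. In the high-fat week 1 group, the library at 119 CPM was kept, with 12769 CPM. The day 1 libraries reached at most 3092 CPM. Whether miR-181a-2-3p would differ at equal levels of muscle RNA was therefore not tested by the omission. Erythrocyte markers (miR-451a, both miR-144 arms and miR-486a-5p) had 3 of 4 estimates above 0 at week 1, with 0 called and 1 at an unadjusted p under 0.05. At week 3 they had 4 of 4 above 0, with 3 at an unadjusted p under 0.05 and 1 called, miR-144-3p (log2 fold change 0.78 ± 0.24, edgeR adjusted p 0.0478). Their summed level was 1329 to 3027 CPM in high-fat and 1948 to 3474 CPM in control libraries at day 1, 2213 to 2655 and 1585 to 2302 CPM at week 1, and 1566 to 3721 and 2156 to 4939 CPM at week 3, and none was at 0 in any library. The part of these markers in the values of miR-181a-2-3p was not tested. The part of muscle RNA in the difference was not tested further than by the relation between libraries given below.

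The other arms of the family moved less over time, and none was called. MiR-181c-3p was at 31.5, 28.7, 23.8 and 27.6 CPM in high-fat and 34.9, 23.3, 25.5 and 20.3 CPM in control libraries at day 1. At week 1 it was at 46.7, 20.7, 48.4 and 42.0 CPM in high-fat and 35.8, 31.8, 31.3 and 55.6 CPM in control libraries, and at week 3 at 41.4, 42.2, 30.1 and 30.8 CPM in high-fat and 28.0, 54.0, 32.3 and 52.3 CPM in control libraries. Of the 8 libraries at each later time, 5 at week 1 and 4 at week 3 lay above the highest of day 1, and over both diets the log2 fold changes were 0.53 ± 0.19 (edgeR adjusted p 0.124) and 0.52 ± 0.19 (adjusted p 0.0830). It was called without high-fat week 1 replicate 2 (0.64 at week 1, adjusted p 0.0358) and without the 3 libraries highest in muscle markers (0.56 at week 3, adjusted p 0.0361).

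MiR-181d-5p, from the hairpin next to Mir181c, was at 372, 417, 327 and 402 CPM in high-fat and 463, 439, 410 and 454 CPM in control libraries at day 1. At week 1 it was at 711, 321, 582 and 439 CPM in high-fat and 452, 413, 359 and 581 CPM in control libraries. At week 3 it was at 472, 526, 522 and 457 CPM in high-fat and 386, 593, 475 and 770 CPM in control libraries. The high-fat libraries of week 3 all lay above those of day 1, beside 11.6% of all tested miRNAs without overlap, and the control libraries overlapped. The log2 fold change over both diets was 0.23 ± 0.15 at week 1 and 0.36 ± 0.15 at week 3 (edgeR adjusted p 0.399 and 0.133). MiR-181b-5p gave 0.15 ± 0.10 and 0.14 ± 0.10, and miR-181a-1-3p 0.16 ± 0.15 and 0.15 ± 0.15. Over all tested miRNAs the median was 0.08 at week 1 and 0.05 at week 3.

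Of the remaining guides, miR-181c-5p had estimates below 0 at both later times and miR-181a-5p at week 3. MiR-181c-5p was at 110.5, 156, 161 and 160.2 CPM in high-fat and 133, 152, 196 and 148 CPM in control libraries at day 1. At week 1 it was at 200.1, 102, 114 and 103 CPM in high-fat and 120.4, 183, 133 and 104 CPM in control libraries, and at week 3 at 75.7, 129, 141 and 100.4 CPM in high-fat and 94.0, 121, 155 and 157 CPM in control libraries. The range of each later time overlapped that of day 1, and the log2 fold change over both diets was −0.20 ± 0.17 at week 1 and −0.33 ± 0.18 at week 3 (edgeR adjusted p 0.548 and 0.218). MiR-181a-5p was at 43.8 to 98.6 CPM at day 1, 49.6 to 82.1 CPM at week 1 and 39.3 to 56.2 CPM at week 3 over both diets, with medians of 52.2, 59.7 and 50.5 CPM (n = 8 each). Its log2 fold changes were 0.11 ± 0.15 and −0.22 ± 0.15 (edgeR adjusted p 0.709 and 0.380).

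**Figure D3:**
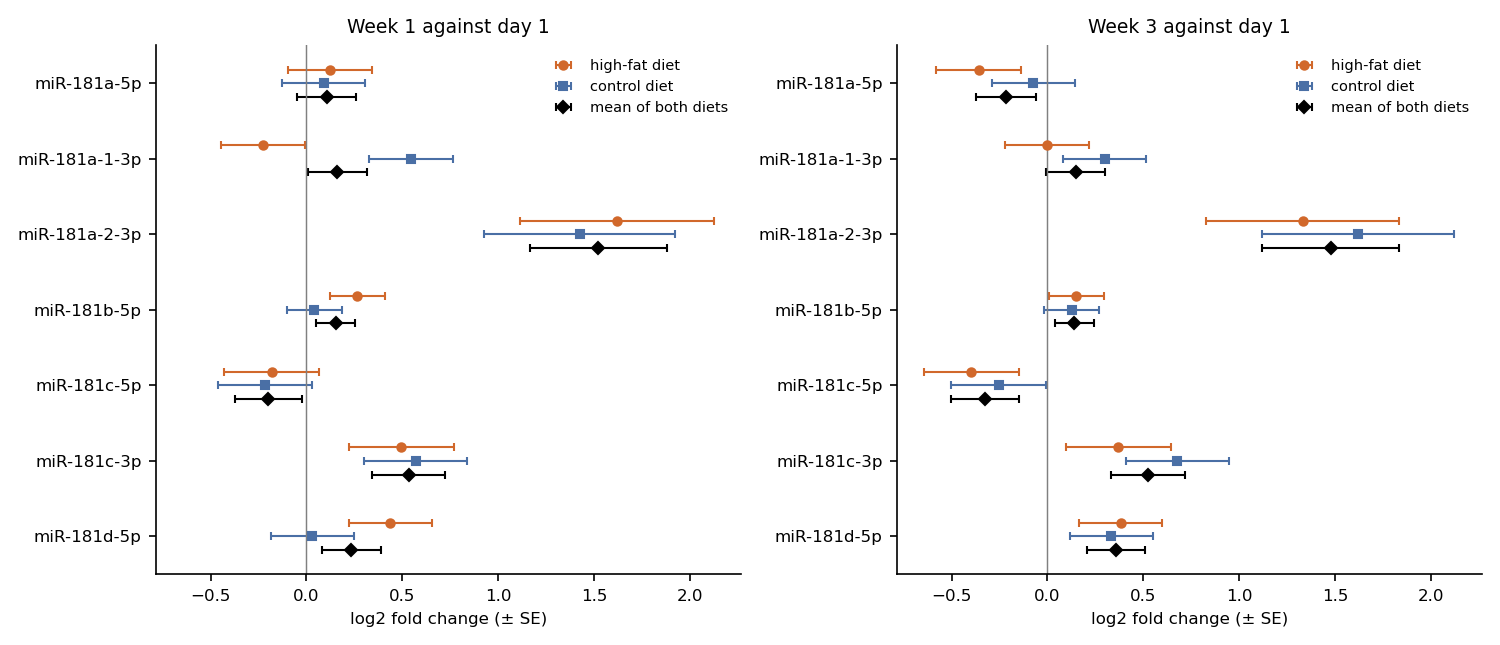
Log2 fold change (± SE) of week 1 (left) and week 3 (right) against day 1 for each miR-181 arm, on the high-fat diet, on the control diet and in the mean of both. MiR-181a-2-3p stands at 1.33 to 1.62, and every other estimate lies between −0.40 and 0.68.

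Ratios between arms of the same library need no scaling between libraries, and they were used to compare arms that share a sequence or a hairpin. The 5 ratios were compared between the diets by exact permutation tests (two-sided, 4 against 4 libraries), whose smallest possible p is 0.0286. None of the 15 differences, nor the 5 stratified over the 3 times, passed the adjusted threshold. With adjustment over the 15, a single difference at the smallest p could not have passed. These 15 tests could therefore not settle whether diet moved any single ratio. The copy ratio of miR-181a-1-3p over miR-181a-2-3p gave differences of 0.33, −0.44 and 0.06 on the log2 scale at day 1, week 1 and week 3 (exact permutation p 0.314, 0.543 and 0.943).

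Over time several ratios differed, in 10 exact permutation tests added after the data were seen, with time permuted within each diet. The copy ratio had a log2 mean of 1.60 ± 0.21 in high-fat and 1.27 ± 0.53 in control libraries at day 1, 0.05 ± 1.18 and 0.49 ± 0.80 at week 1, and 0.34 ± 0.54 and 0.28 ± 1.31 at week 3 (SD, n = 4). In linear terms miR-181a-1-3p had 1.41 to 3.505 counts for each count of miR-181a-2-3p in the day 1 libraries, and 0.331 to 2.91 in the later ones. The difference from day 1 was −1.17 at week 1 and −1.12 at week 3 (exact permutation adjusted p 0.0155 and 0.0122). It kept its side of the threshold in all single omissions. This difference is not separate from the call of miR-181a-2-3p above, whose log2 fold changes were 1.52 and 1.48, beside 0.16 and 0.15 for miR-181a-1-3p. The skeletal muscle markers set beside miR-181a-2-3p apply here too. MiR-181a-1-3p was above miR-181a-2-3p in 19 of 24 libraries.

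The arms of Mir181c also shifted against each other. The log2 ratio of miR-181c-5p over miR-181c-3p averaged 2.38 ± 0.41 in high-fat and 2.61 ± 0.46 in control libraries at day 1, 1.73 ± 0.55 and 1.82 ± 0.68 at week 1, and 1.60 ± 0.56 and 1.69 ± 0.45 at week 3 (SD, n = 4). It was lower than at day 1, with differences of −0.72 at week 1 and −0.85 at week 3 (exact permutation adjusted p 0.0233 and 0.0122). Both arms come from 1 hairpin. MiR-181c-5p had a Spearman's rho of −0.49 with the skeletal muscle markers over the 24 libraries (permutation adjusted p 0.0581), beside 0.06 for miR-181c-3p. The part of muscle RNA in this ratio and the next was not tested. MiR-181d-5p over miR-181c-5p, 2 guides of neighbouring hairpins, shares miR-181c-5p and the day 1 libraries with the ratio above, so the 2 are not separate. It was higher by 0.68 at week 3 (exact permutation adjusted p 0.00816). At week 1 the difference was 0.42 (adjusted p 0.0549), and it passed the threshold when any 1 of 5 libraries was left out (control day 1 replicate 1, control week 1 replicates 2 and 3, high-fat day 1 replicate 1 or high-fat week 1 replicate 2).

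The ratio of the miR-181a guide to its passengers was lower at later times. The log2 ratio of miR-181a-5p over the sum of miR-181a-1-3p and miR-181a-2-3p was lower than at day 1, with differences of −0.54 at week 1 and −0.81 at week 3 (exact permutation adjusted p 0.0255 and 0.00816), and at week 1 it missed the threshold without high-fat day 1 replicate 4 (−0.45) or high-fat week 1 replicate 3 (−0.47). Of the 3 arms in this ratio, miR-181a-2-3p had the largest log2 fold changes (1.52 and 1.48), beside 0.16 and 0.15 for miR-181a-1-3p and 0.11 and −0.22 for miR-181a-5p, and the skeletal muscle markers set beside miR-181a-2-3p above apply here too. MiR-181b-5p over miR-181a-5p differed by 0.03 at week 1 and by 0.32 at week 3 (exact permutation adjusted p 0.834 and 0.0184).

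**Figure D4:**
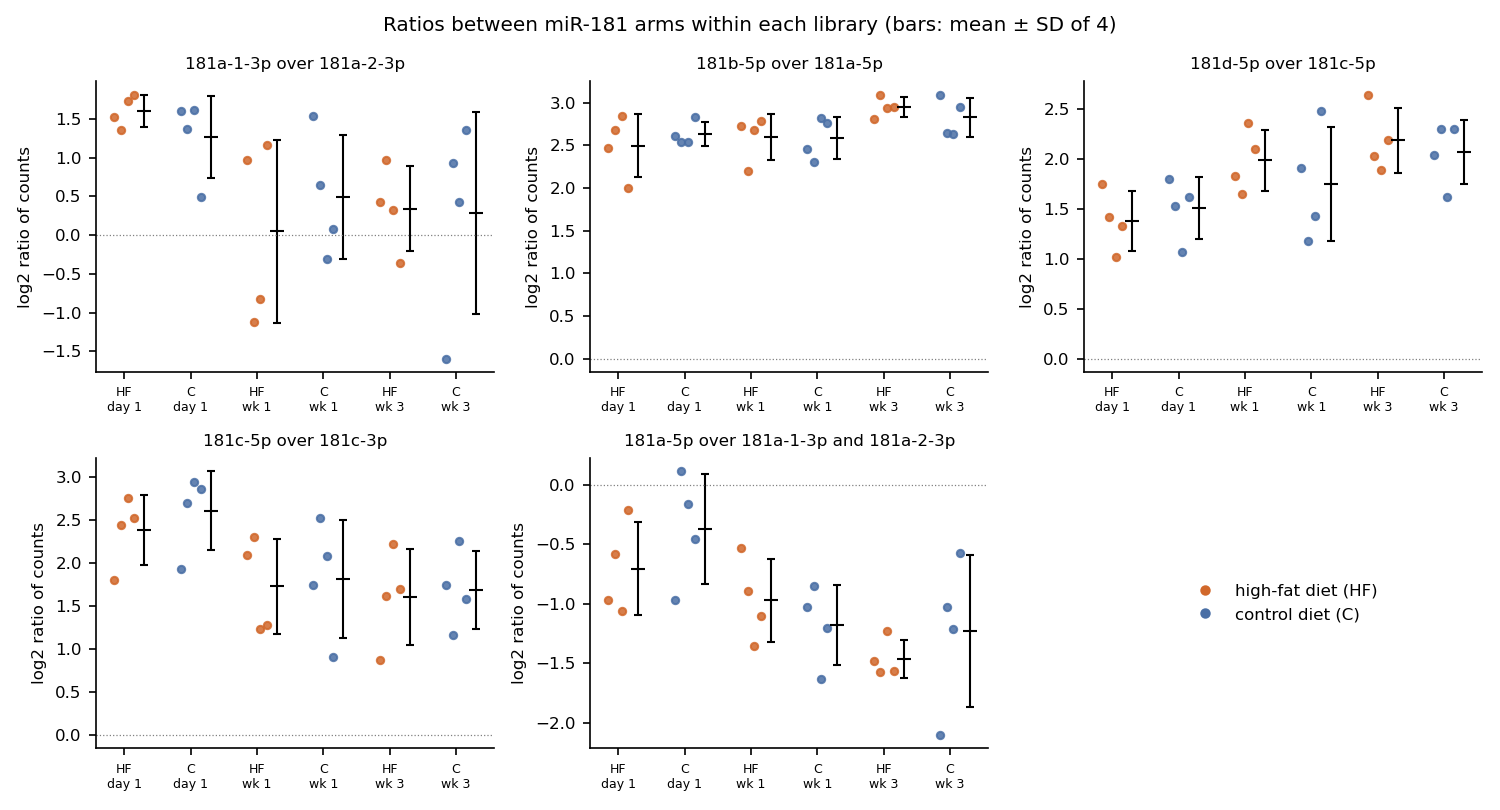
Log2 ratios of counts between miR-181 arms within each library, with high-fat (HF, orange) beside control (C, blue) at each time and the mean ± SD of 4 libraries in black; the dotted line marks equal counts. The ratios of miR-181a-1-3p over miR-181a-2-3p and of miR-181c-5p over miR-181c-3p are lower at week 1 and week 3 than at day 1 on both diets.

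The members were then set against the mean log2 CPM of lymphocyte, endothelial and skeletal muscle markers over the 24 libraries, 21 pairs in all. Members and lists were chosen with earlier results of these data known, which the permutation p-values do not take into account. The closest relation was that of miR-181a-2-3p with the muscle markers, at Pearson's r 0.84 and Spearman's rho 0.88 (100000-resample permutation p 1e-05, the smallest these permutations can give, and adjusted p 0.00021, for both). Without the 2 libraries farthest from the median of the markers r was 0.86. It held within the high-fat diet (rho 0.85, n = 12) and the control diet (0.91), and within day 1 (0.76), week 1 (0.79) and week 3 (0.88, n = 8 each). With values centred on the mean of their diet and time rho was 0.84 (permutation adjusted p 0.00021), and without the 3 libraries highest in the markers it was 0.85 (adjusted p 0.00042). Centred values were permuted freely across groups, with no allowance for the group means taken out. Their p-values, here and below, therefore tend to be too small.

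MiR-181a-1-3p, the same arm of the other copy, had no such relation with muscle markers (r 0.06, rho −0.06, permutation adjusted p 0.835 and 0.843). It went instead with the lymphocyte markers, at rho 0.63 (permutation adjusted p 0.0124) and r 0.49 (adjusted p 0.0626), with r 0.56 without the 2 farthest libraries. Within day 1, week 1 and week 3 rho was 0.81, 0.60 and 0.64 (n = 8 each), and centred on the groups it was 0.53 (adjusted p 0.0793). MiR-150, miR-155 and miR-342, whose levels were given above with the diet comparison, are the miRNAs behind this mean.

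Non-members were not set against these marker lists, so the counts of pairs have no share over all tested miRNAs beside them. They cannot be called particular to the family. Of the 21 pairs 5 passed the adjusted threshold by Spearman's rho and 4 of these also by Pearson's r, the exception being miR-181a-1-3p with lymphocyte markers. The other 3 were weaker. MiR-181b-5p had rho 0.58 with muscle markers (r 0.54; permutation adjusted p 0.0246 and 0.0358) and −0.53 with lymphocyte markers (r −0.57; adjusted p 0.0319 and 0.0210). Without the 2 farthest libraries r was 0.42 and −0.49. MiR-181a-5p had rho −0.56 and r −0.66 with miR-126a-3p, the endothelial miRNA that alone stood for its list because miR-126a-5p was listed at 0 in every library (permutation adjusted p 0.0281 and 0.00725), and r −0.42 without the 2 farthest. Centred on the groups, these 3 did not pass by rho, whereas miR-181a-5p with miR-126a-3p passed by Pearson's r (−0.67, permutation adjusted p 0.00598), as did miR-181a-5p with muscle markers (r 0.55, adjusted p 0.0298; rho 0.47, adjusted p 0.0991). These centred p-values tend to be too small, for the reason given above. Leaving out control week 3 replicate 1 ended the call of all 3 (rho 0.55 and −0.50 for miR-181b-5p with muscle and lymphocyte markers, −0.51 for miR-181a-5p with miR-126a-3p). Leaving out high-fat week 3 replicate 3, high-fat week 1 replicate 3, control week 1 replicate 4, control week 3 replicate 4 or high-fat day 1 replicate 3 also ended that of miR-181b-5p with lymphocyte markers (rho −0.47 to −0.52). Leaving out high-fat day 1 replicate 4, high-fat week 1 replicate 2 or high-fat week 3 replicate 3 ended that of miR-181a-5p (rho −0.50 to −0.53). MiR-181c-5p had rho −0.49 with muscle markers (permutation adjusted p 0.0581) and passed without any 1 of 4 libraries (control day 1 replicate 1, control week 1 replicates 1 and 2, high-fat week 1 replicate 4; rho −0.51 to −0.58). MiR-126a-3p was itself higher at week 3 than at day 1 over both diets (log2 fold change 0.36 ± 0.11, edgeR adjusted p 0.0473). Both values of a point share the depth and scaling of 1 library, and with library totals alone 3 of the 21 pairs passed. Those lost were miR-181a-5p with miR-126a-3p (rho −0.39) and miR-181b-5p with lymphocyte markers (rho −0.17).

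Between members, 21 pairs were also compared after the data were seen. MiR-181c-3p and miR-181d-5p, from neighbouring hairpins, moved together over libraries, with rho 0.76 and r 0.78 (permutation adjusted p 0.00126 and 0.00063). Without the 2 farthest libraries r was 0.75, and centred on the groups rho was 0.74. The guides of the same hairpins, miR-181c-5p and miR-181d-5p, had rho 0.01 and r 0.12. MiR-181c-3p also had rho 0.78 with miR-326-3p and 0.75 with miR-107-3p, which are not members. MiR-181a-2-3p and miR-181c-5p ran against each other, with rho −0.65 and r −0.61 (adjusted p 0.00808 and 0.0165; r −0.55 without the 2 farthest libraries), and centred on the groups rho was −0.48 (adjusted p 0.169) and r −0.52 (adjusted p 0.0456). With library totals alone neither measure passed (rho −0.52, adjusted p 0.0518; r −0.44, adjusted p 0.109). With TMM scaling and no centring no other pair passed. With library totals alone miR-181a-5p and miR-181b-5p passed (rho 0.64, permutation adjusted p 0.0113; r 0.65, adjusted p 0.00619), and miR-181a-2-3p with miR-181b-5p passed by r (0.58, adjusted p 0.0161). Centred on the groups miR-181a-5p with miR-181b-5p (r 0.55) and miR-181a-2-3p with miR-181d-5p (r −0.55) passed by r (permutation adjusted p 0.0362 each) and not by rho. The p-values of centred values in this paragraph tend to be too small, for the reason given above. Arms of 1 hairpin were not close, as miR-181c-5p and miR-181c-3p had rho −0.19, and miR-181a-5p had 0.04 with miR-181a-1-3p and 0.03 with miR-181a-2-3p.

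**Figure D5:**
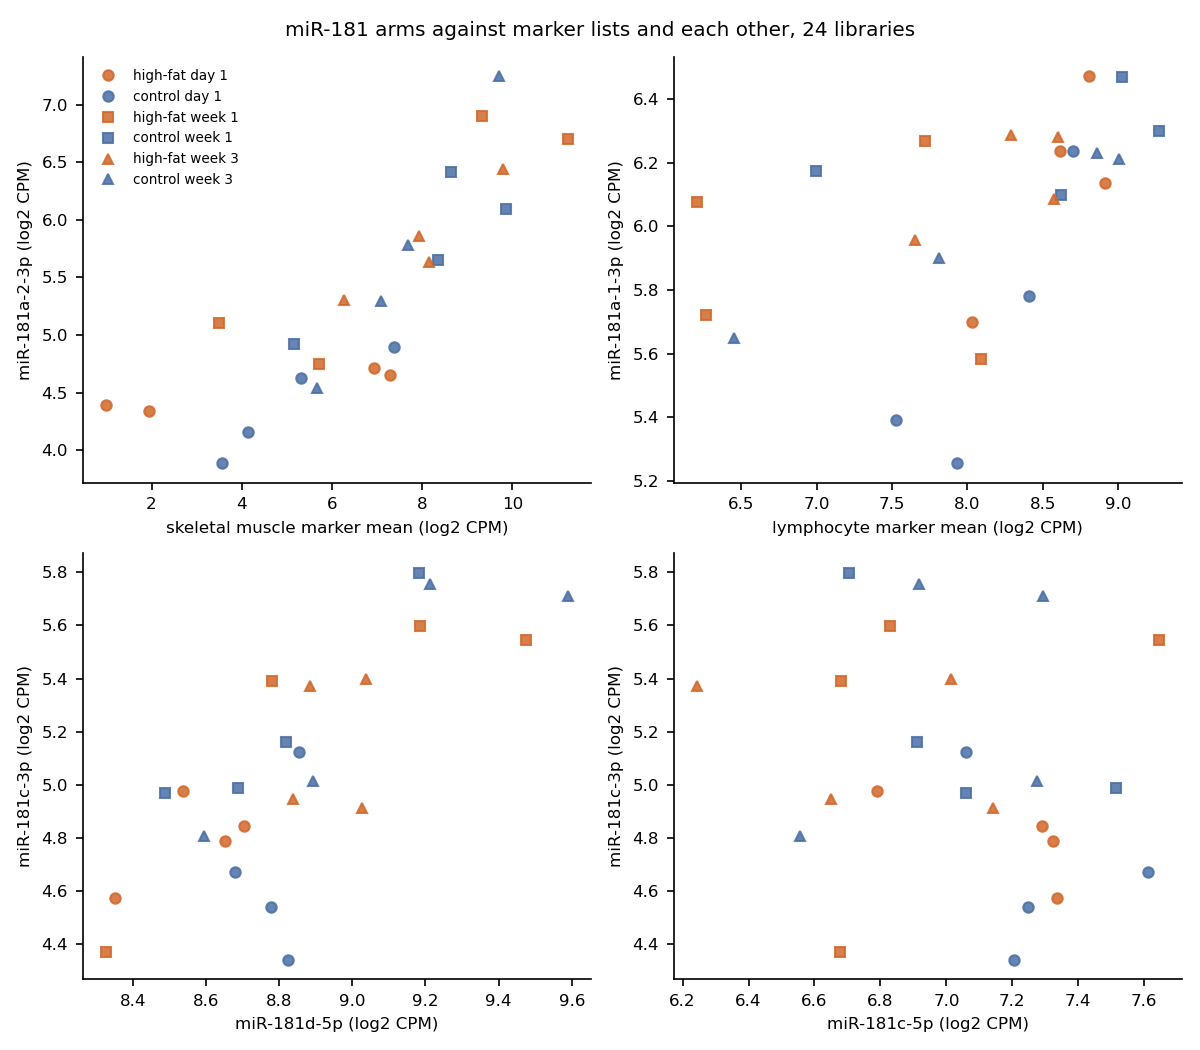
Log2 CPM of miR-181a-2-3p against the skeletal muscle marker mean, of miR-181a-1-3p against the lymphocyte marker mean, and of miR-181c-3p against miR-181d-5p and miR-181c-5p, with 1 point per library (24) coloured by diet and shaped by time. Spearman's rho is 0.88, 0.63, 0.76 and −0.19 in the same order.

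The other tested miRNAs most like each member were ranked by Spearman's rho of log2 CPM over the 24 libraries, among 550 candidates. For miR-181a-2-3p they were miR-149-5p (0.94), the muscle miRNA miR-133a-5p (0.92) and miR-486a-3p (0.90), known from red cells and muscle. For miR-181a-1-3p they were miR-92a-3p of the miR-17-92 cluster (0.77), miR-532-5p (0.77) and miR-8112 (0.76), and for miR-181c-3p miR-326-3p (0.78), miR-107-3p (0.75) and miR-324-3p (0.74). MiR-181d-5p was closest to miR-375-3p (0.72), miR-204-5p (0.71) and miR-7688-5p (0.70), miR-181b-5p to miR-3102-3p (0.72), miR-539-5p (0.70) and miR-675-5p (0.69), and miR-181c-5p to miR-26b-5p (0.67), miR-350-3p (0.64) and miR-872-3p (0.63). MiR-181a-5p had the lowest leading values, with miR-665-3p (0.61), miR-185-3p (0.60) and miR-30b-3p (0.51).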

How the data were processed

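Per the labels' protocols, libraries were made from TRIzol-purified RNA of subcutaneous adipose tissue with the NEBNext kit for small RNAs. The deposited table holds raw counts of reads per mature miRNA name, made by the authors with FastQC, Trim Galore, Bowtie2, featureCounts and mm10, per the submitters' processing notes. The handling of reads with several matches is not given in the sources used here. Groups came from the titles. The filter filterByExpr (minimum count 10, minimum total 15) kept 558 names; the rest held 0.0179% of counts. Tests used edgeR 4.0.16 (R 4.3.3) with TMM, 1 model of 6 groups and Benjamini-Hochberg adjustment over the 558, threshold 0.05; DESeq2 1.42.0 was an alternative. Ratios used raw counts plus 0.5 and exact permutation tests, relations 100000 resamples (scipy 1.17.1). Reads carry no stated molecular identifiers, so floors cover counting error only. In simulated data for high-fat against control at week 1 (558 miRNAs), 64 of 100 true log2 changes of 1 and 92 of 100 of 2 were called, beside 3 of 358 unchanged ones. All these changes were present at once, which makes the adjusted threshold easier to pass. In the data 0% were called in this comparison, so these shares overstate how often few or single changes would be called. No 2 libraries of a group matched within sampling noise (lowest chi-square per degree of freedom 82.2). Members and lists were chosen with earlier results of these data known. The miRNAs named are the members, examples of the lists and the 3 most alike per member. Alternatives were size factors by relative log expression (RLE), library totals alone, no filter, DESeq2, a replicate block, a fit of the compared libraries alone and leaving out each library; those without 3 libraries high in muscle markers, the contrasts over both diets, the ratio tests over time and the relations between members were added after the data were seen.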

Additional observations from a re-analysis of the deposited data

Results flagged for a closer look

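Within groups of 4, 4 values of 72 groups examined stood apart from the other 3 libraries by more than Dixon's 95% limit, and chance flags about 1 in 20 groups. MiR-181a-5p was at 98.6 CPM in high-fat day 1 replicate 4, where the other 3 libraries had 43.8 to 52.0 CPM. It was at 46.9 CPM in control week 3 replicate 1, where the others had 55.7 to 56.2 CPM. MiR-181c-5p was at 110.5 CPM in high-fat day 1 replicate 1, below 156 to 161 CPM in the others, and at 200.1 CPM in high-fat week 1 replicate 1, above 102 to 114 CPM in the others.

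Arms of the family that are no members were also counted. MiR-181b-1-3p had 300 counts over all libraries, 5 to 33 per library. It was among the 558 tested miRNAs and was not called in any comparison. Its log2 fold change for high-fat against control in the mean of the 3 times was 0.35 ± 0.22 (SE, edgeR adjusted p 0.993). MiR-181b-2-3p had 100 counts, with more than 3 in 13 libraries and 0 in 1. MiR-181d-3p had 25 counts, with more than 3 in 3 libraries and 0 in 14.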

How the results depend on the processing

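Of 3500 alternative values of 128 single results, 3447 kept their direction and side of the threshold, 39 lost the threshold, 13 gained it and 1 reversed; a reversal was counted only where the reported value was at least its SE. The reversed one was rho of miR-181d-5p with miR-126a-3p, −0.26 when centred on the groups against 0.27. Of 441 counts for 15 comparisons, 415 stayed within 1.5 times. Members called at week 1 against day 1 on the high-fat diet were 1 with DESeq2 (0 as reported), and at week 3 on the high-fat diet 1 in a fit of the compared libraries (0 as reported). In the mean of both diets 0 members were called at week 1 (1 as reported) with RLE size factors, without the filter or without the 3 libraries highest in muscle markers, and 0 to 2 with single libraries left out. At week 3 the counts were 0 without the filter and 2 without those 3 libraries (1 as reported). Marker pairs past the threshold by Spearman's rho were 5 as reported, 3 with library totals alone, 1 centred on the groups, 2 without those 3 libraries, and 2 to 6 with single libraries left out, the fewest without control week 3 replicate 1. The cause was not tested. Over all tested miRNAs, DESeq2 called 7, 23 and 37 at week 1 (control, high-fat, mean of both diets; 1, 0 and 5 as reported) and 6, 11 and 71 at week 3 (2, 0 and 40). Without the 3 libraries high in muscle markers 31 differed between the diets at week 1 (0 as reported). With no filter the mean of both diets called 19 at week 3.

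Replicate numbers were not taken to pair the libraries, since the labels state no shared source and the correlation of deviations was over 0.1 in 7 of 12 same-numbered pairs and not in all (−0.51 to 0.42, mean 0.11, beside −0.04 for different numbers). With the replicate block the log2 fold change of miR-181a-2-3p over both diets was 1.54 at week 1 and 1.46 at week 3 (edgeR adjusted p 0.0474 and 0.0275), and no call of a member changed; over all miRNAs the block called 10 at week 1 (5 as reported).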
